A study of Mus musculus with 15 samples.

Results

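Notch signalling passes between neighbouring cells: ligands of the Jagged and Delta-like families on one cell bind Notch receptors on the next, the receptor is cut, and its intracellular part joins the DNA-binding protein RBPJ and a Mastermind coactivator to switch on genes such as Hes1 and Hey1. In the liver the pathway is known for its part in bile duct formation, where Jag1 and Notch2 are central, and inherited loss of either gene in people leaves too few bile ducts. Dlk2 encodes an EGF-repeat membrane protein related to Dlk1 and built like the Notch ligands, but without their receptor-binding DSL domain, and it has been described as an inhibitor of Notch signalling.

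Described here are Dlk2 and 9 genes of the Notch pathway, 10 of the 24421 gene symbols in the data. They were picked by symbol as ligands and ligand-like genes (Dlk2, Jag1, Jag2), receptors (Notch1, Notch2, Notch3), nuclear factors (Rbpj, Maml3) and targets (Hes1, Hey1), with the fold changes at both times already known. Their calls are therefore a description and support nothing further. Each symbol had 1 row at each time, and 9 members, without Notch3, had a mean high enough for an adjusted p at 12 h and at 24 h.

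The samples were 15 RNA-seq libraries of an established cell line from bile ducts of adult C57BL/6 mice. All carried the genotype written as ITR-CreERT2;Klf5flox/flox in the labels, that is, a Cre recombinase activated by tamoxifen together with floxed Klf5, the gene of a zinc finger transcription factor of the Krüppel-like family. Ethanol, the control, was given to 3 libraries sampled at 12 h and 4 at 24 h, and 4-OH tamoxifen to 4 libraries at each time. The labels do not say what drives the recombinase, and the series describes the structures both as in vitro and as in vivo. No group lacks the recombinase, so tamoxifen, Cre activity and loss of Klf5 cannot be told apart. The source is a single named line, and nothing says that replicates were separate cultures, so a p-value reflects how much these libraries varied, and that variation may be technical. The values used are the authors' comparison within a time; values of single libraries were not used here, so each group is given by its mean level.

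On average a library held 13.9 M normalised counts at 12 h and 11.8 M at 24 h. Klf5 itself stood at 40.9% of ethanol at 12 h and 30.4% at 24 h in the authors' deposited tables. Of 12 biliary markers, 9 had a mean of at least 50 normalised counts at each time, among them Krt19 and Sox9, but Epcam was low, with means of 15.7 and 9.56 in the authors' deposited tables. Of 8 hepatocyte markers, Hnf4a, Apoa1 and Ttr were above that level. In the authors' deposited tables Hnf4a had means of 7584 and 4146, Apoa1 of 1291 and 448, and Ttr of 685 and 267. Alb had means of 3.68 and 1.48 in the authors' deposited tables and Cyp2e1 was at 0. The hepatocyte list summed to 9097 normalised counts in ethanol and 9936 in tamoxifen at 12 h, and to 4657 and 5081 at 24 h. Of 8 fibroblast and stellate markers 0 reached a mean of 50, and of 8 endothelial and 8 immune markers only Flt1 and Cd68 did. Summed over the fibroblast list, the level at 24 h was 10.002 normalised counts in ethanol and 12.6 in tamoxifen. The endothelial list summed to 302 and 296 normalised counts and the immune list to 81.9 and 74.4 at that time, and at 12 h the sums of the 3 lists were 30.0 and 29.3, 194 and 202, and 80.9 and 81.8. In bulk RNA, fewer cells of a type and less RNA per cell cannot be told apart.

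Among the members, Dlk2 fell most, the target gene Hey1 fell at 24 h, and the receptor gene Notch2 was slightly lower at 24 h, while the nuclear factors Rbpj and Maml3 were slightly higher at 24 h. The ligand genes Jag1 and Jag2, the receptor gene Notch1 and the target Hes1 were not called at either time. A call here means that the adjusted p in the authors' deposited table, from their Wald test with Benjamini-Hochberg adjustment, is under 0.05. Of the 9 members with an adjusted p, 1 was called at 12 h, lower, where 0.943% of all such genes were called and 0.728% were lower. At 24 h 5 members were called, 3 lower and 2 higher, where 12.4% of all genes were called, 6.52% lower and 5.90% higher. At an adjusted p under 0.01, 3 members and 7.33% of all genes were called at 24 h, and with the stricter Benjamini-Yekutieli adjustment 2 members and 6.34% of all genes. Since the members were chosen with both comparisons in view, nothing is read from their counts against these shares.

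**Figure D1:**
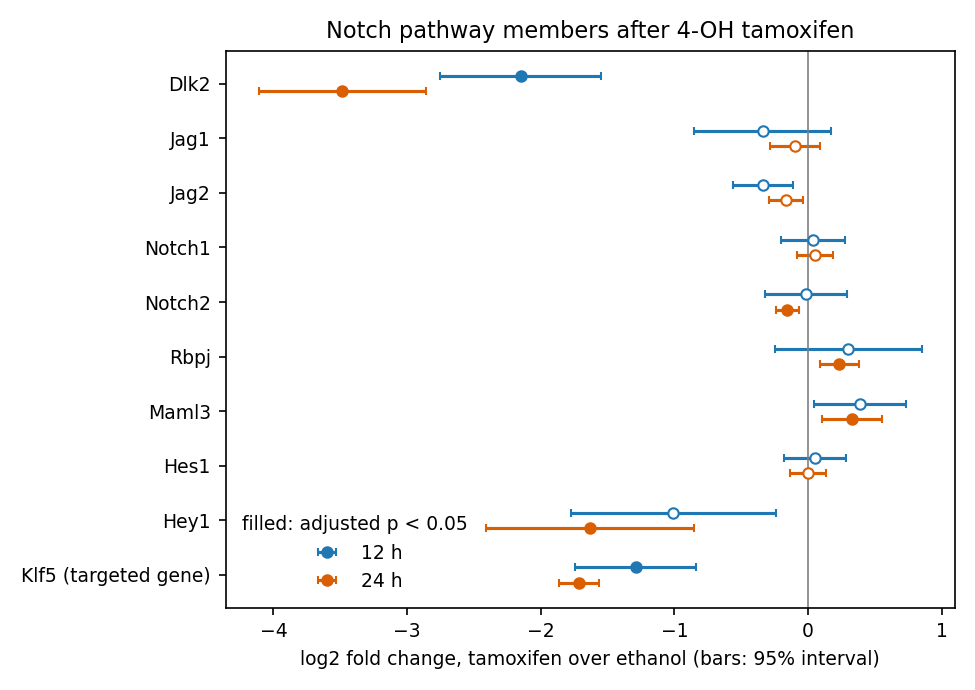
Log2 fold change of tamoxifen over ethanol (x axis) for 9 members and the targeted gene Klf5, at 12 h (blue) and 24 h (orange), with 95% intervals of 1.96 standard errors on each side, from the authors' deposited tables; filled points were called. Dlk2 stands at -2.15 and -3.49, and Hes1 sits close to 0 at both times.

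The upstream sequence is shown for Dlk2, Notch2 and Maml3, as examples of members lower (Dlk2, Notch2) and higher (Maml3) at 24 h that hold matches to the motifs below. Rbpj, also higher and with 1 match, is described with the remaining windows. KLF factors are known to bind GC-rich elements, among them CACCC and GC boxes. RefSeq promoters on GRCm38.p6 were matched for 8 of the 10 members, with 10 start sites in all; Hes1 and Hey1 have no entry in that table. Dlk2 has 2 starts there. Capitals mark CACCC boxes (CACCC or GGGTG) and GC boxes (GGGCGG or CCGCCC), and bases that GENCODE gives as exon are left out of the stretches shown. The window before the second start of Dlk2, chr17:46297678-46297927 on the forward strand, lies between the first exon of other Dlk2 transcripts and that start. The Notch2 stretch is chr3:98013288-98013526 on the forward strand and that of Maml3 is chr3:52105077-52105256 on the reverse strand.
Dlk2: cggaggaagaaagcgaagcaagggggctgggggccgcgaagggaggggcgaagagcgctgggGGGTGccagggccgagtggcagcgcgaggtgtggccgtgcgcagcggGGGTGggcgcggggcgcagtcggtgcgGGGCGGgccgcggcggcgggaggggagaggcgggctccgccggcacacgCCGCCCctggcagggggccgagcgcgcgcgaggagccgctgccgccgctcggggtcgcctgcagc
Notch2: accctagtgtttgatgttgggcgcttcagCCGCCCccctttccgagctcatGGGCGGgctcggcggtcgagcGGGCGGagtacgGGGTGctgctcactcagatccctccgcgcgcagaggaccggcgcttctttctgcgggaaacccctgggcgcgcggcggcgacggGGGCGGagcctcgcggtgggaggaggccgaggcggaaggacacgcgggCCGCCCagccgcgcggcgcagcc
Maml3: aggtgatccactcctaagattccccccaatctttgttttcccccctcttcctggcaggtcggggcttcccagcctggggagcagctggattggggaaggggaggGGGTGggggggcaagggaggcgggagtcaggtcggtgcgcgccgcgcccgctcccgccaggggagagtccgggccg

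In the 250 bases before the second start of Dlk2 a search of both strands found 2 GC boxes, 2 CACCC boxes and 5 matches to CCNCNCCC. CCNCNCCC is a short form of the KLF5 consensus, and its matches can overlap the boxes and each other, each being counted. The 250 bases before the first start of Dlk2, chr17:46297233-46297482, held 0 of each. Notch2 had 5 GC boxes, 1 CACCC box and 2 matches to CCNCNCCC, and Maml3 had 0, 1 and 5. Both windows of Rbpj held 0 GC boxes and 0 matches to CCNCNCCC, and its first window held 1 CACCC box and its second 0. Among members that were not called, Notch1 and Jag2 each had 5 GC boxes and Notch3 had 4, with 1, 3 and 5 matches to CCNCNCCC, and Jag1 had 0 and 1. Notch1 and Jag2 also had 1 CACCC box each, and Notch3 and Jag1 had 0. All these counts cover the full 250 bases, exon bases included. The Jag2 window and the second Rbpj window consist of exon bases only. Exon bases number 132 in the first Rbpj window, 124 in that of Jag1, 70 in that of Maml3 and 62 in the first of Dlk2. They number 11 in that of Notch2, 2 in that of Notch1 and 0 in the remaining windows. GTGGGAA, 1 form of the RBPJ site, was found in 0 of the 10 windows. Among all 32851 windows of the same length, 32.7% held a GC box, 52.0% a CACCC box, 45.9% a match to CCNCNCCC and 5.42% GTGGGAA. Among the 9904 windows of genes whose 24 h mean was 50 normalised counts or more, the shares for the first 3 were 60.6%, 56.6% and 64.7%. Of these 9904 windows, 18.0% held 3 or more GC boxes, 7.64% 3 or more CACCC boxes and 26.6% 3 or more matches to CCNCNCCC. Such matches describe the letters in a window and no binding was measured.

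On GRCm38, Dlk2 covers bases 46297421 to 46303271 of chromosome 17, forward strand. From the deposited mean and fold, its level was solved as 124 normalised counts in ethanol and 27.8 in tamoxifen at 12 h, and as 96.0 and 8.56 at 24 h. Summed over libraries, its normalised counts came to 482 at 12 h and 418 at 24 h, so the low tamoxifen level at 24 h rests on few reads. In log2 terms Dlk2 fell by 2.15 at 12 h (SE 0.31), with an adjusted p of 3.03e-09 (Wald test, authors' deposited table), which left 22.5% of the ethanol level with a 95% interval of 14.8% to 34.2%. At 24 h it fell by 3.49 (SE 0.32), with an adjusted p of 3.36e-25 (Wald test, authors' deposited table), which left 8.93% with an interval of 5.79% to 13.8%. Both tamoxifen levels lie well below the ethanol level of the same time. The SE of Dlk2 was 1.15 times that of genes of similar mean at 12 h and 1.54 times at 24 h. Its last 51 exon bases, 2.41% of the exon length, overlap Abcc10 on the other strand, and the library kit does not keep the strand. Abcc10 stood at -0.31 (SE 0.18) at 12 h and -0.12 (SE 0.09) at 24 h in the authors' deposited tables and was not called.

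The fold of Dlk2 differed between the times by -1.33 (SE 0.44), with a 95% interval of -2.20 to -0.47. The unadjusted p of this difference was 0.00262 and its adjusted p 0.9999 in a Wald test over 14981 genes, so it did not pass the threshold. Of all genes tested, 0.0134% passed, and 0 of the 10 members did. Of the members, Dlk2 was the 1 with an unadjusted p under 0.05, and over all genes the share was 1.64%. That share is lower than such p-values give when no fold differs, so the test was conservative over the genes as a whole. Missing the threshold does not show that the fold of Dlk2 was the same at both times.

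The ligand genes were not called. Jag1, the main Notch ligand of the biliary tree, stood at 5999 normalised counts in ethanol and 4743 in tamoxifen at 12 h, and at 7400 and 6906 at 24 h. Its log2 fold in the authors' deposited tables was -0.34 (SE 0.26) at 12 h and -0.10 (SE 0.10) at 24 h, neither called. The SE at 12 h was 2.07 times that of genes of similar mean, and the ratio was nearly as large at 24 h. Jag2, a second Jagged ligand, stood at 1325 and 1047 normalised counts at 12 h and at 836 and 746 at 24 h. Its log2 fold of -0.34 (SE 0.11) at 12 h had an adjusted p of 0.19, and that of -0.16 (SE 0.06) at 24 h one of 0.0773, in the Wald test of the authors' deposited tables. Both 95% intervals of Jag2 lay below 0, from -0.56 to -0.11 and from -0.29 to -0.04, and neither value passed the adjusted threshold.

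Of the receptors, Notch2 was lower at 24 h by a small and precisely measured amount. It stood at 2263 normalised counts in ethanol and 2031 in tamoxifen at 24 h, and at 1867 and 1843 at 12 h. Notch2 fell by 0.16 in log2 terms at 24 h (SE 0.04), to 89.7% of ethanol, with an adjusted p of 0.00671 (Wald test, authors' deposited table). It covers bases 98013527 to 98150361 of chromosome 3, forward strand. Its fold at 12 h was -0.02 (SE 0.16) in the authors' deposited table, and the interval of -0.33 to 0.29 contains the later value. Notch1 stood at 2081 and 2134 normalised counts at 12 h and at 4059 and 4213 at 24 h. Its log2 fold was 0.04 (SE 0.12) and 0.05 (SE 0.07) in the authors' deposited tables, and the 24 h interval ran from -0.08 to 0.19. Notch1 shares 7.50% of its exon bases with 0610009E02Rik on the other strand. Notch3 was barely detected, with means of 0.56 and 0.87 normalised counts in the authors' deposited tables, or totals of 3.94 over 7 libraries and 6.93 over 8 libraries, and no fold is given.

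The nuclear factors were higher at 24 h. Rbpj, the DNA-binding protein of the pathway, stood at 1294 normalised counts in ethanol and 1521 in tamoxifen at 24 h. It rose by 0.23 (SE 0.07) in log2 terms at 24 h, with an adjusted p of 0.0181 (Wald test, authors' deposited table). At 12 h it stood at 421 and 518 normalised counts, with a log2 fold of 0.30 (SE 0.28) in the authors' deposited table and no call. Maml3, a Mastermind coactivator, stood at 164 and 207 normalised counts at 24 h and at 177 and 231 at 12 h. It rose by 0.33 (SE 0.11) at 24 h in the authors' deposited table (adjusted p = 0.0366, Wald test), and its value of 0.39 (SE 0.18) at 12 h had an adjusted p of 0.67. Rbpj covers bases 53466152 to 53657362 of chromosome 5, forward strand, and Maml3 bases 51685907 to 52105076 of chromosome 3, reverse strand. The difference between times was -0.07 (SE 0.29) for Rbpj and -0.06 (SE 0.21) for Maml3.

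The target genes did not move alike. Hes1, a repressor and the best known Notch target, stood at 839 normalised counts in ethanol and 869 in tamoxifen at 12 h, and at 505 and 504 at 24 h. Its log2 fold was 0.05 (SE 0.12) and -0.00393 (SE 0.07) in the authors' deposited tables, and its 24 h interval of -0.14 to 0.13 runs from 90.8% to 109.6% of ethanol. Hey1, a related repressor, was measured at a far lower level, 37.7 normalised counts in ethanol and 18.7 in tamoxifen at 12 h, and 23.5 and 7.57 at 24 h. Hey1 fell by 1.63 in log2 terms at 24 h (SE 0.40), to 32.3% of ethanol with an interval of 18.8% to 55.3% and an adjusted p of 0.000847 (Wald test, authors' deposited table). At 12 h its value was -1.01 (SE 0.39) in the authors' deposited table, with an unadjusted p of 0.00976 and an adjusted p of 0.40 in the Wald test. Hey1 covers bases 8663359 to 8667256 of chromosome 3, reverse strand. The totals of Hey1 were 188 and 124 normalised counts over all libraries of a time.

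**Figure D2:**
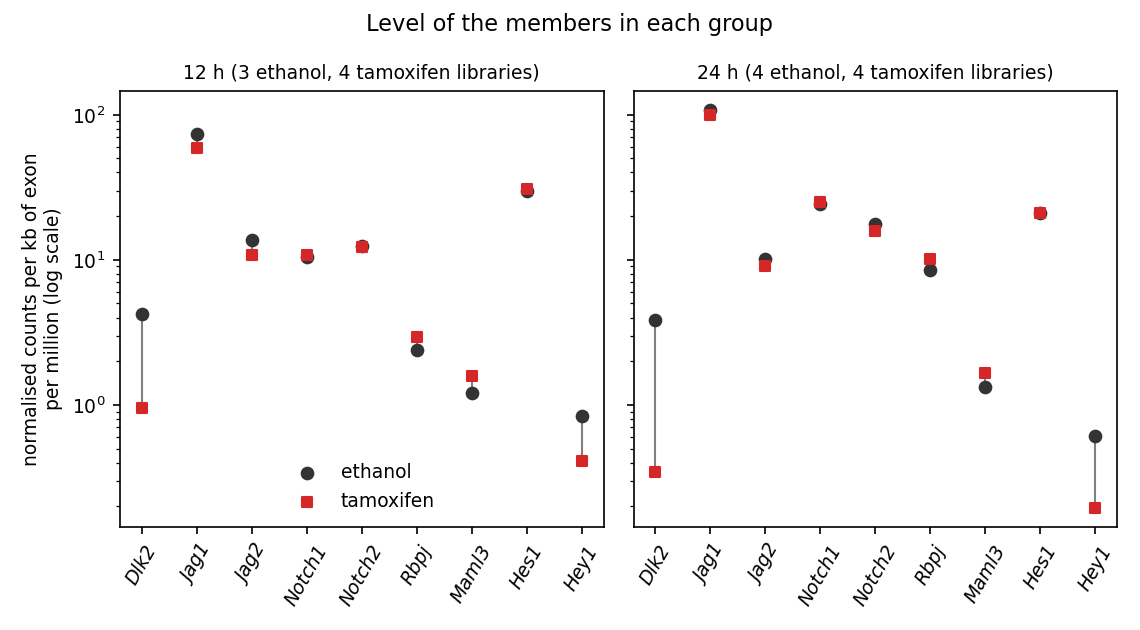
Level of 9 members (x axis) in ethanol (black circles) and 4-OH tamoxifen (red squares) at 12 h and 24 h, in normalised counts per kb of exon and per M of the table total on a log axis, solved from the deposited mean and fold. The grey line joins the groups of a gene, and it is long for Dlk2 and Hey1 and short for the other members shown.

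To compare levels between genes, the group levels were divided by exon length in kb and by the total of the table in M. In ethanol at 12 h Jag1 was highest at 74.1 normalised counts per kb per M, followed on the same scale by Hes1 at 29.7, Jag2 at 13.7, Notch2 at 12.5 and Notch1 at 10.5. Dlk2 came next at 4.21 per kb per M, above Rbpj at 2.38, Maml3 at 1.21 and Hey1 at 0.832. With the spread implied by the SE of each fold, some neighbours in this order could not be told apart at 12 h. These were Jag2 and Notch2, Notch2 and Notch1, and Maml3 and Hey1. In ethanol at 24 h the order of levels was Jag1 at 107 per kb per M, Notch1 at 24.1, Hes1 at 20.9, Notch2 at 17.7, Jag2 at 10.1, Rbpj at 8.57, Dlk2 at 3.83, Maml3 at 1.32 and Hey1 at 0.607. The order depends on the length used: with the longest transcript in place of all exons, Rbpj at 5.53 per kb per M stood above Dlk2 at 4.99 at 12 h, Rbpj stood at 19.9 per kb per M at 24 h, above Notch2 and Jag2, and Notch1 at 15.8 was above Notch2 at 12 h. In tamoxifen at 24 h Dlk2 was at 0.342 per kb per M, below Maml3 at 1.66.

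Rbpj and Notch1 also differed in level between the times, in the controls. Per M, the ethanol level of Rbpj at 24 h was 3.60 times that at 12 h and that of Notch1 was 2.29 times, and in tamoxifen the ratios were 3.44 and 2.32. The ethanol ratio of Rbpj was above that of 99.5% and that of Notch1 above that of 95.3% of 9861 genes with a mean of at least 50 at both times, whose median log2 ratio was -0.06. The ratio of Dlk2, 0.911, was above that of 45.7% of these genes. The tables were normalised separately, so this is a description without a test, and time and any difference in how the libraries of each time were made cannot be told apart.

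A wider list of 73 Notch pathway genes, grouped by role and including the members, shows where the other calls lie. At 12 h the authors' deposited table has an adjusted p for 58 of the 73; 2 fell, none rose and 56 were not called, or 3.45% called against 0.943% of all genes, with a median log2 fold of 0.02 against -0.01 over all genes. Among genes with a mean of 100 normalised counts or more, 1 of the list was called at 12 h, where 1.06% of all such genes were. The number of list genes above that mean was not worked out, so no share of the list is given. At 24 h the authors' deposited table has an adjusted p for 56 of the list. Of these, 4 fell, 5 rose and 47 were not called, and the median was 0.00 for the list and for all genes. Over the whole list 16.1% were called at 24 h, against the 12.4% of all genes. Without the members, which were chosen with their folds known, 4 of 47 were called at 24 h, or 8.51%. At 12 h, without the members, 1 of 49 was called, or 2.04%, against the 0.943% of all genes.

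Tle4, a Groucho-family corepressor, was the 1 gene of the wider list besides Dlk2 that fell at both times. It stood at 501 normalised counts in ethanol and 318 in tamoxifen at 12 h, and at 852 and 562 at 24 h. The log2 fold of Tle4 was -0.66 (SE 0.17, adjusted p = 0.0233) at 12 h and -0.60 (SE 0.06, adjusted p = 3.20e-19) at 24 h in the Wald test of the authors' deposited tables. Tle3, of the same family, rose by 0.30 (SE 0.07) at 24 h in the authors' deposited table, from 1432 to 1766 normalised counts. Of the 11 corepressor genes, 9 were not called at 24 h, so 18.2% were called against 12.4% of all genes.

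Among 9 measured genes of the nuclear activator complex, 3 rose and none fell at 24 h in the authors' deposited table, where 5.90% of all genes were called higher. Rbpj and Maml3, chosen with their folds known, are among the 3, and neither was called with Benjamini-Yekutieli adjustment. Beside Rbpj and Maml3 this was Maml2, a second Mastermind coactivator, at 731 normalised counts in ethanol and 992 in tamoxifen. Maml2 rose by 0.44 (SE 0.09) at 24 h in the authors' deposited table (adjusted p = 4.77e-05, Wald test) and had 0.48 (SE 0.17, adjusted p = 0.25) at 12 h. Maml1, the remaining Mastermind gene, was at -0.13 (SE 0.06) in the authors' deposited table at 24 h and was not called. Neurl1a, a ubiquitin ligase gene related to the fly ligand regulator neuralized, rose by 0.69 (SE 0.20) at 24 h in the authors' deposited table, from 52.7 to 85.3 normalised counts.

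At 24 h none of the 4 measured receptor glycosylation, 9 receptor cleavage and 8 receptor turnover genes were called in the authors' deposited table. Over all genes 12.4% were called at that time, and groups this small can hold 0 calls at such a share. Their median log2 folds were -0.07, 0.03 and 0.04. At an unadjusted p under 0.05 these groups held 0, 1 and 1 genes, where 18.0% of all genes had one. Of the 3 ligand genes Jag1, Jag2 and Dll1 none was called at either time, and of the 3 measured target genes only Hey1 was called at 24 h. The shares called over all genes were 0.943% at 12 h and 12.4% at 24 h. Nrarp, a Notch target that feeds back on the receptor, was at 0.04 (SE 0.15) at 24 h in the authors' deposited table; 79.4% of its exon bases overlap Gm38287 on the other strand, so reads of these genes cannot be told apart. Dlk1, the paralogue of Dlk2, had a mean of 0 at both times.

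**Figure D3:**
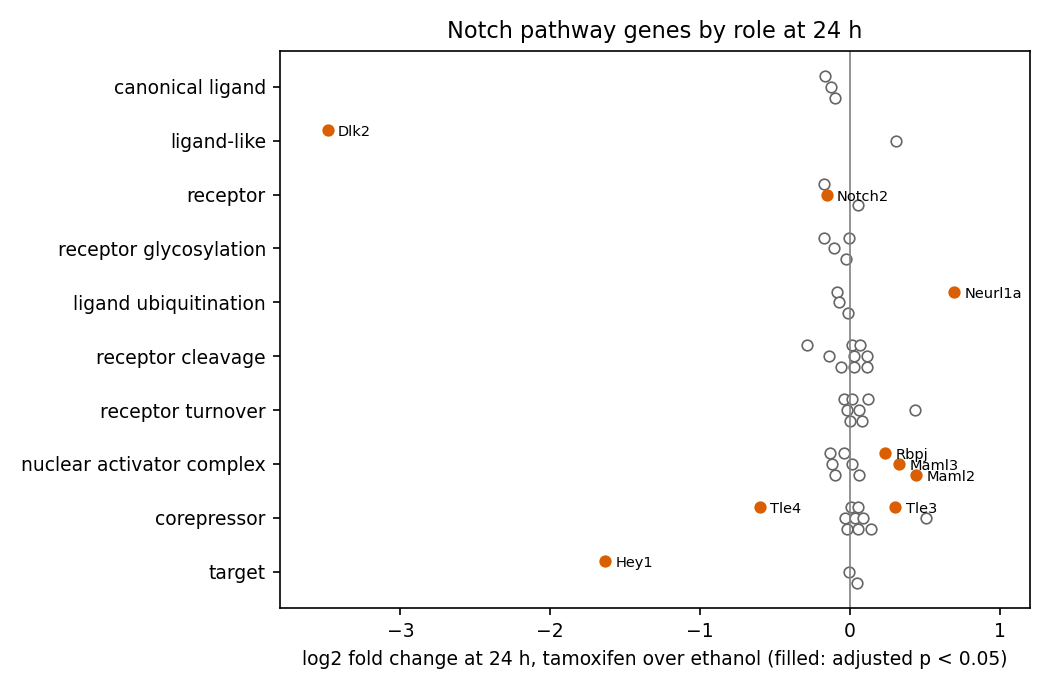
Log2 fold change at 24 h (x axis) of the 56 Notch pathway genes with an adjusted p, 1 point per gene, by role (y axis); filled and named points were called in the authors' deposited table, and the vertical offset within a role has no meaning. Dlk2 and Hey1 lie far to the left, and the other called genes lie between -0.60 and 0.69.

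The genes most like Dlk2 in response were sought by the distance between log2 folds at the times, over 9581 genes whose mean was 50 normalised counts or more at both times. The nearest were Sprr2h, of the small proline-rich family, at a distance of 1.65, the annexin gene Anxa8 at 1.77, the actin nucleator gene Cobl at 1.86, Klf5 at 1.97 and the integrin gene Itgb6 at 1.97. Their log2 folds at 24 h, -1.92, -1.94, -1.63, -1.72 and -1.89 in the authors' deposited table, were all less negative than that of Dlk2. With Wald scores in place of log2 folds, 0 of these 5 were among the nearest 5, which were Ctgf, Als2cl, Rasgef1b, Mgat3 and Npnt. Dlk2 itself was just above the minimum at 24 h, with a mean of 52.3 that came mostly from ethanol (96.0 against 8.56 in tamoxifen). Genes below the minimum were not compared, so any that fell as steeply would not appear here.

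**Figure D4:**
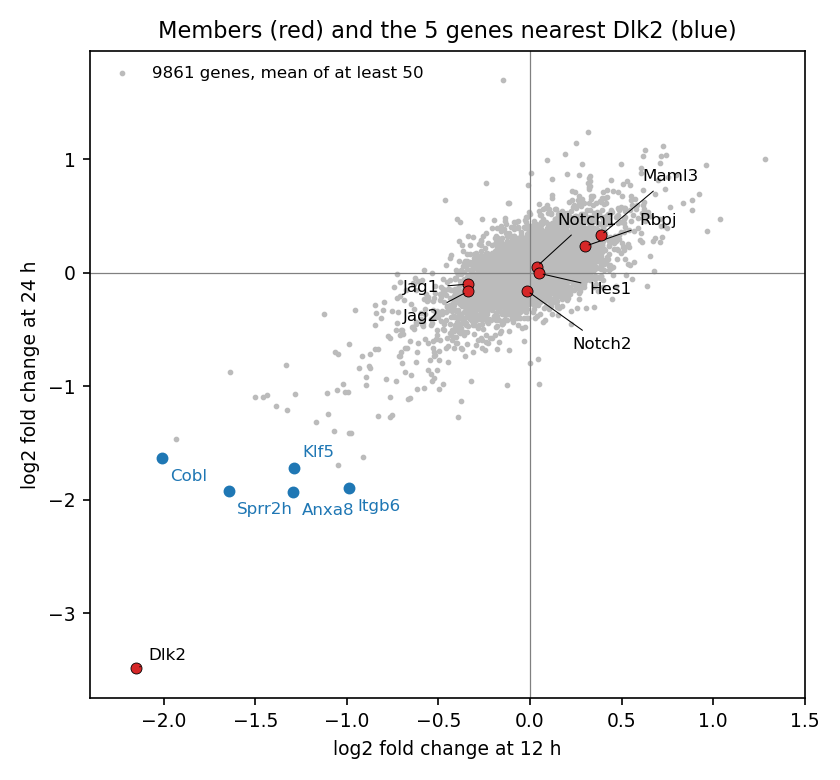
Log2 fold change at 12 h (x axis) against 24 h (y axis) for genes whose mean was 50 normalised counts or more at both times (grey), with 8 members in red and the 5 genes nearest Dlk2 in blue; Hey1 and Notch3 are below that mean. Dlk2 lies at -2.15 and -3.49, apart from the nearest genes above that mean, and genes below it are not shown. Of the 8 members, 7 have the same sign at both times, as do 68.9% of all 9860 such genes with a p.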

How the data were processed

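The submitters' processing notes name HISAT2, DESeq2 and mm10 without versions or roles; the kit was TruSeq RNA v2, per the labels' protocols. Which tool counted reads, with which annotation and model formula, is not given in the sources used here. Per the file headers, the authors' deposited tables give, for each time, the mean normalised count (a signal), the log2 fold change and its standard error, the Wald score and a p-value, raw and adjusted. A blank adjusted p marks genes of low mean, leaving 13044 genes at 12 h and 11648 at 24 h.

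The lowest means at 12 h, those of 1 read, take 7 values, 3 with negative and 4 with positive folds, the numbers of ethanol and tamoxifen libraries; at 24 h the split of 4 and 4 does not check the direction, which was taken to be the same. Group levels were solved from the deposited mean, fold and group sizes, and are approximate because the fold is a model estimate. The spread of a level was derived from the SE of the fold, taking both groups to vary alike. The SE was compared with the running median of 201 genes of similar mean. Differences between times were divided by the root of the summed squared SEs, with Benjamini-Hochberg adjustment over all genes with a p at both times; the calculation was tested on simulated folds of genes with a mean of at least 50. Positions and exon lengths came from GENCODE for GRCm38, which is mm10. The members and lists were chosen with earlier results of these data known. Named genes are the members, Klf5, called genes of the wider list and the 5 genes nearest Dlk2 among those with a mean of at least 50; symbols starting with Gm and a number, ending in Rik or containing -ps were left out of the nearest genes. Other genes named, uncalled pathway genes, markers and Abcc10 among them, were named after their values were seen. Alternatives were other adjustments, thresholds, centring, a minimum mean, transcript length and another distance. Scripts ran in Python 3.11.15 (scipy 1.17.1, pandas 2.3.3, numpy 2.4.6, matplotlib 3.10.9). Library depth is known only as the mean normalised total, and the reads carry no molecular identifiers. Intervals cover only what the standard errors hold.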

Additional observations from a re-analysis of the deposited data

How the results depend on the processing

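The call of Dlk2 at both times and that of Hey1 at 24 h held under every alternative tried on them (adjustment over all genes with a p, thresholds of 0.01 and 0.10, centring on the median fold and Benjamini-Yekutieli adjustment), and no fold changed direction. Of the 5 members called at 24 h, 3 remained at a threshold of 0.01 and 2, Dlk2 and Hey1, with Benjamini-Yekutieli adjustment, where Notch2, Rbpj and Maml3 had adjusted p of 0.0667, 0.18 and 0.36, so these small changes depend on the threshold. With Benjamini-Yekutieli adjustment Tle4 at 12 h (adjusted p = 0.23) and Neurl1a at 24 h (adjusted p = 0.0931) were not called either. Of 2 calls in the wider list at 12 h, 1 was left when a mean of 100 normalised counts was required, because Dlk2 lies below that mean. At 24 h the same minimum left 6 of 9 calls, and Dlk2, Hey1 and Neurl1a lie below it. Of all genes above that minimum 14.2% were called, a share of genes and not of calls, so the 2 values cannot be compared. No paired analysis was possible because the tables hold no value per library, and for the same reason no replicate could be left out. Few reads limit Hey1, Notch3 and Dlk2 in tamoxifen.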

Other observations

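The genes around Dlk2 on chromosome 17 were examined, a set chosen after the values of Dlk2 were seen. Of 9 other genes within 100 kb, 7 had a mean of at least 50 normalised counts at both times. Their log2 folds ranged from -0.31 to 0.02 at 12 h and from -0.31 to 0.00 at 24 h in the authors' deposited tables, far from the -2.15 and -3.49 of Dlk2. None was called at 12 h, where 0.943% of all genes were, and 1 was called at 24 h, where 12.4% were: Tjap1, which encodes a tight junction associated protein, at -0.31 (SE 0.06, adjusted p = 4.62e-06 in the Wald test of the authors' deposited table). Abcc10, a transporter gene that overlaps the end of Dlk2, and Zfp318, a zinc finger gene, stood at -0.12 and -0.07 at 24 h in the authors' deposited table and were not called. Lrrc73, also within 100 kb, was left out of these ranges because its means were 41.4 and 21.5 normalised counts. It stood at -0.70 (SE 0.36) at 12 h and -0.12 (SE 0.31) at 24 h in the authors' deposited tables and was not called.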
